A study of Mus musculus with 12 samples.

Results

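The proteasome subunit genes were examined in RNA-Seq libraries of U2OS cells, a human osteosarcoma line. The members were the protein-coding genes that the deposited table describes as a proteasome subunit or a proteasome 26S subunit, which gave 39 of 58735 genes in the table and of 19951 protein-coding genes. The 12 libraries formed 4 groups of 3 replicates: U2OS cells labelled blank, U2OS cells labelled siSRSF1-2, U2OS cells labelled siSRSF1-3, and U2OS cells labelled OE-LINC01134. The siSRSF1 labels name small interfering RNAs against the splicing factor SRSF1, and OE-LINC01134 names raised expression of a long non-coding RNA. No library of cells that had received a control siRNA or an empty vector was analysed here, so a treatment and the transfection itself cannot be told apart. The labels give no dose, time, vector or clone. The supplementary methods speak of biological replicates, fewer per group than the labels give, but neither they nor the labels tie a library to a culture of its own, so the p-values measure the spread between these libraries, which may be technical.

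The proteasome is the protease that degrades ubiquitin-tagged proteins in the cytosol and nucleus. Its barrel-shaped 20S core is a stack of rings, with alpha subunits (PSMA genes) forming the outer rings that gate entry and beta subunits (PSMB genes) forming the inner rings, in which PSMB5, PSMB6 and PSMB7 carry the active sites. The 19S cap binds ubiquitin chains, removes them and threads the substrate inwards with a ring of ATPases (PSMC genes), helped by non-ATPase subunits (PSMD genes). In cells exposed to interferon gamma, PSMB8, PSMB9 and PSMB10 replace PSMB5, PSMB6 and PSMB7 and give the immunoproteasome, which favours peptides presented on MHC class I. PSMB11 takes such a place in the thymus and PSMA8 in the testis. Drugs that inhibit the active sites are used against multiple myeloma.

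Reads assigned to genes ranged from 26237763 to 32954539 per library. SRSF1 was at 19.8 to 35.9 FPKM (fragments per kilobase of gene, scaled to the size of the library) in the blank libraries, at 7.09 to 7.46 with siSRSF1-2, and at 3.33, 6.81 and 7.90 with siSRSF1-3, and LINC01134 was at 878 to 1279 in the OE-LINC01134 libraries against 0.50 to 1.11 in all others. The markers VIM and COL1A1 were expressed, and 6 of 10 mesenchymal and osteoblast markers reached a mean of 0.5 FPKM. SP7, IBSP, BGLAP and COL1A2 did not, with COL1A2 at a mean of 0.0058 FPKM. Of 5 epithelial markers, 4 reached it and KRT19 did not. KRT18 and KRT8 had means of 77.4 and 30.1 FPKM over all libraries, above the 20.8 of COL1A1. The summed level of 5 blood cell markers stayed at or below 0.277 FPKM. The replicates were not equally spaced. All siSRSF1-2 libraries, blank replicates 2 and 3, and OE-LINC01134 replicates 1 and 3 were near-identical, with a chi-square of their reads between 2.13 and 3.20 per degree of freedom against 63.2 to 316 in every other replicate pair, although each still differed by more than the sampling noise.

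These differences ran through the proteasome genes. Blank replicate 1 exceeded both other blank libraries in 33 of 37 tested members, with a median log2 difference of 0.51 from their mean, where the median over all genes tested was 0.04. Of all genes tested, 47.3% exceeded both other blank libraries there. OE-LINC01134 replicate 2 likewise exceeded both of its partners in 33 of 37 members, with a median difference of 0.30. Of all genes tested, 41.8% did so, with a median difference of -0.03 over all of them. The siSRSF1-3 libraries were spread most: their median over the members, relative to the blank mean, was 0.32, 0.28 and -0.23 on the log2 scale in replicates 1, 2 and 3. In the same libraries the sum of all FPKM values was 611084, 410612 and 302504, while it lay between 281051 and 324607 in the 9 others. The counts of members called are therefore also given without such libraries.

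The subunit genes were among the well expressed genes of U2OS cells. Of the 39 members, 37 reached a mean of 0.5 FPKM over all libraries and were tested, and their blank means had a median of 29.4 FPKM, above 88.6% of the protein-coding genes tested. PSMA8 had no read in any library, which allows up to 3 reads per library by counting error, and PSMB11 had at most 2 reads. FPKM is scaled by the gene length in the table, so a level set beside that of another gene depends on that length. By FPKM the beta ring stood highest, with a median blank mean of 89.7 FPKM over its 7 genes, against 27.6 for the alpha ring, 44.8 for the ATPases and 21.7 for the non-ATPase subunits. Its median length was also the shortest of these roles, 1787 bases, against 4318.5, 4018.5 and 5075.5 in the same order. The part of length in this order was not tested.

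PSMA7, an alpha ring subunit, had the highest level of all members, at 372, 243 and 241 FPKM in the blank libraries. PSMD2, a large scaffold of the 19S base, followed at 184, 138 and 138 FPKM, and PSMB3, a structural beta subunit, at 163, 108 and 112. PSMD2 exceeded PSMB3 in each blank library, and PSMB3 exceeded PSMB7, PSMC3 and PSMB4, whose order changed between the blank libraries. At the other end PSMA2 and PSMA6 were at 0.773 to 1.16 and 0.546 to 0.844 FPKM in the blank libraries, although each encodes a constitutive alpha subunit. PSMA2 overlaps MRPL32, on the opposite strand, which had 1223% of the reads of PSMA2, and a pseudogene of PSMA6 had a mean of 1.18 FPKM. The use of strand in counting is not given in the sources used here, so the low value of PSMA2 is uncertain. The low values of PSMA6, which has this pseudogene, and of PSMD9, which shares its strand and locus with WDR66, are uncertain whatever the use of strand.

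**Figure D1:**
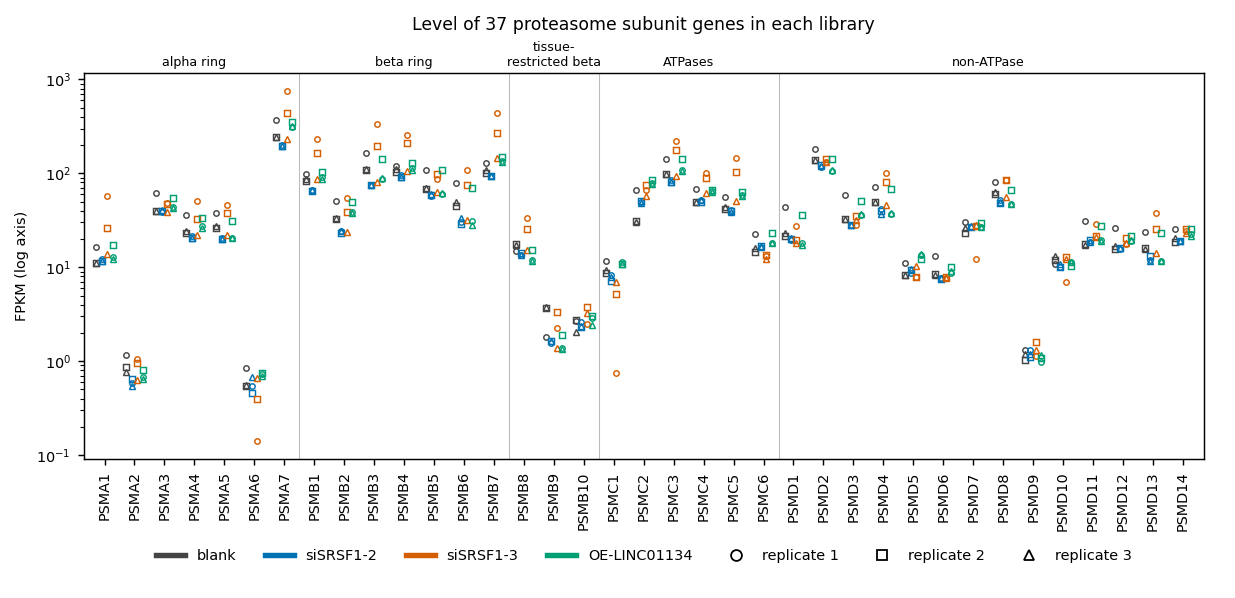
FPKM (log axis) of the 37 tested proteasome subunit genes, ordered by role, with 1 symbol per library, coloured by group and shaped by replicate. By group mean, PSMA7 lies highest and PSMA2 and PSMA6 lowest in every group, and the siSRSF1-3 libraries spread most, from 233 to 758 FPKM for PSMA7.

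With siSRSF1-2, subunit genes were mostly below the blank cells. Of 37 members, 7 fell and none rose in limma's moderated test with Benjamini-Hochberg adjustment over 17538 genes (adjusted p under 0.05, limma). Of all genes tested, 26.8% passed the same test and 12.8% passed it in the lower direction. The 7 members were PSMB6, PSMB3, PSMB2, PSMA5, PSMD8, PSMB1 and PSMB4, so 5 of 7 beta ring genes, 1 of 7 alpha ring genes and 1 of 14 non-ATPase genes were among them, with none of 6 ATPases and none of 3 tested tissue-restricted beta genes. None was past a 2-fold change, which 4.95% of all genes tested were. The median log2 fold change of the 37 members was -0.34, beside 0.02 over all genes. In bulk RNA, a change in some cells and a smaller change in all cells cannot be told apart. The summed level of 10 mesenchymal and osteoblast markers was 139.6 to 144 FPKM in these libraries against 269 to 406 in the blank libraries, and that of 5 epithelial markers 63.2 to 66.3 against 105 to 186, while 3 endothelial markers stayed at or below 0.662 in all groups; the part of these markers in the result was not tested.

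PSMB6, which carries the caspase-like active site (chromosome 17, 4796144 to 4798503 in the table, which names no build), was at 78.6, 45.4 and 49.0 FPKM in the blank libraries and at 30.4, 29.2 and 33.6 with siSRSF1-2. The ranges did not overlap, and PSMB6 fell by 0.85 ± 0.21 on the log2 scale (SE, n = 3 and 3, limma adjusted p = 0.0314). PSMB3 was at 163, 108 and 112 FPKM against 75.5, 75.6 and 74.4, and fell by 0.74 ± 0.16 (SE, limma adjusted p = 0.0206). PSMB2, a neighbouring structural beta subunit, was at 50.7, 32.4 and 33.4 FPKM against 24.3, 23.2 and 24.1, and fell by 0.67 ± 0.18 (SE, limma adjusted p = 0.0369). In all of these genes blank replicate 1 was the highest of the blank and siSRSF1-2 libraries. The changes of PSMA5, PSMD8, PSMB1 and PSMB4 were between -0.58 and -0.26, with limma adjusted p values between 0.0125 and 0.0407.

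The direction was shared more widely than the calls. The fitted change was below 0 in 33 of 37 members, all 7 alpha ring and all 7 beta ring genes among them. Among all genes tested it was below 0 in 8476 of 17538. In 24 members every siSRSF1-2 library lay below every blank library and in none above, where 24.2% and 25.3% of all genes tested did so. At an unadjusted p under 0.05, 18 members were lower and none higher, against 19.7% lower and 20.6% higher among all genes. PSMC2, an ATPase, had the highest fitted value, 0.31 ± 0.30 (SE), with 49.8, 50.6 and 47.9 FPKM inside the blank range of 30.6 to 66.4.

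The 7 calls depended on the libraries. Averaging the near-identical libraries, which leaves a single siSRSF1-2 value, left 0 of 37 members called and 1 at an unadjusted p under 0.05, and leaving out any siSRSF1-2 library left 0 (limma, 7 to 10 at an unadjusted p under 0.05). Without blank replicate 1, which was high for these genes, 22 members were lower and 2 higher (PSMC2 and PSMD11), and the median was -0.20. In that fit 25 of 32 listed genes that build, feed or regulate the proteasome were also called, against 13 in the main fit. Without blank replicate 3 only PSMB3 and PSMB1 were called, and 7 of the 32 listed genes. The share of all genes called in these fits is not given here, so nothing is read from these counts about the members.

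**Figure D2:**
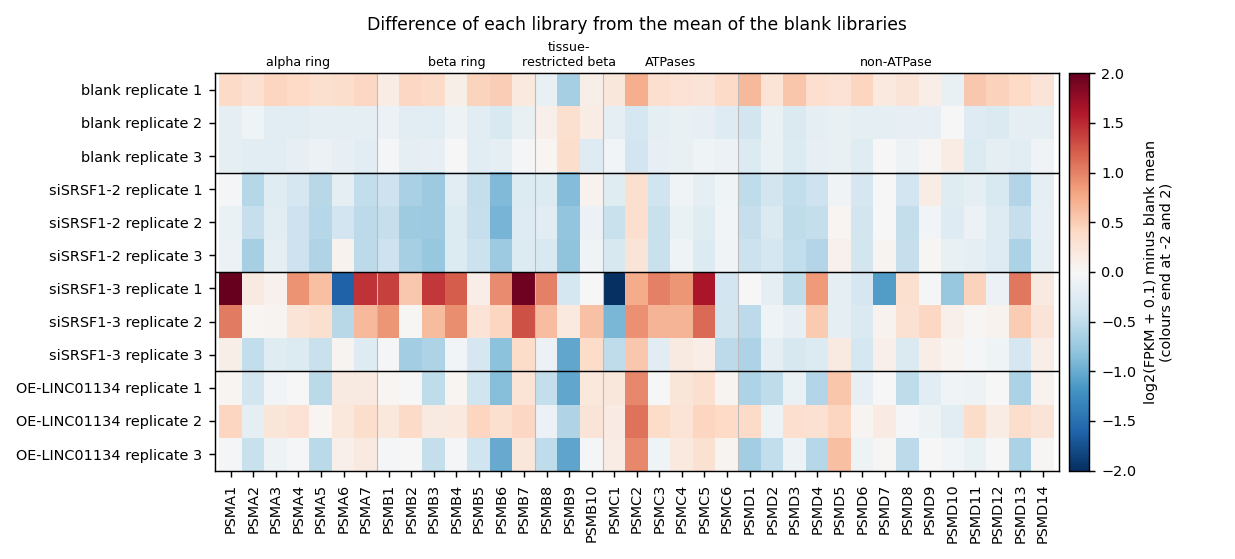
Difference of each library from the mean of the 3 blank libraries on the log2(FPKM + 0.1) scale, for 37 subunit genes (columns, by role) and 12 libraries (rows), in red where higher and blue where lower. The siSRSF1-2 rows are alike and mostly blue, with 3 to 5 of 37 members above the blank mean, whereas the siSRSF1-3 rows run from deep red and blue in replicate 1 to pale blue in replicate 3.

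With siSRSF1-3, the subunit genes did not move as a group, and the replicates were far apart. No member passed the limma test (0 of 37, smallest adjusted p = 0.128), where 1.28% of all genes tested did and 1.26% did so past a 2-fold change. At an unadjusted p under 0.05 the limma fit gave 2 members higher and 0 lower, against 15.2% higher and 13.6% lower among all genes, and limma-voom on the recovered reads also called 0. The ranges did not overlap in 1 member that was higher and 3 that were lower, where 19.2% and 18% of all genes did so. The median log2 fold change was 0.15 over the members and -0.01 over all genes. By role it was 0.53 in the ATPases, 0.48 in the beta ring, 0.15 in the alpha ring and -0.06 in the non-ATPase subunits.

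PSMB7, the trypsin-like active site subunit (chromosome 9, 124353466 to 124415444), was the member higher in every siSRSF1-3 library, at 435, 272 and 145 FPKM against 129, 102 and 109 in the blank libraries. Its log2 fold change was 1.19 ± 0.41 (SE, n = 3 and 3, limma adjusted p = 0.128). PSMC5, an ATPase, was at 144, 102 and 51.0 FPKM against 55.5, 41.6 and 43.7, a difference of 0.96 ± 0.39 (SE, limma adjusted p = 0.161). PSMA1, of the alpha ring, was at 57.3, 26.2 and 13.7 FPKM against 16.5, 11.0 and 11.1, a difference of 1.11 ± 0.50 (SE, limma adjusted p = 0.186). Without siSRSF1-3 replicate 1 the differences of PSMC5 and PSMA1 were 0.63 and 0.58. In each of these genes, PSMB7 included, siSRSF1-3 replicate 3 was lowest and, for PSMC5 and PSMA1, lay inside the blank range.

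The lowest fitted change belonged to PSMC1, an ATPase that was singled out after its values were seen. It was at 0.753, 5.13 and 6.91 FPKM with siSRSF1-3, below the blank values of 11.5, 8.69 and 9.42, with a log2 fold change of -1.65 ± 0.74 (SE, limma adjusted p = 0.188), which was -0.71 without siSRSF1-3 replicate 1 (limma adjusted p = 0.174). PSMC6, another ATPase, was at 13.3, 13.6 and 12.2 FPKM against 22.9, 14.6 and 16.0. Pseudogenes of PSMC1 and PSMC6 had means of 1.55 and 3.40 FPKM over all libraries. NRDE2, which overlaps PSMC1 on the opposite strand, had 22.8% of the reads of PSMC1. The part of these genes in the values of PSMC1 and PSMC6 was not tested. Of the 6 ATPases, 4 were fitted above and 2 below the blank cells, and none passed the test. Without siSRSF1-3 replicate 3, 8 members were called, all higher (PSMB7, PSMB4, PSMB1, PSMA1, PSMC3, PSMC4, PSMC5 and PSMB8), beside 35.9% of all genes. Scaling all libraries to the same FPKM sum moved the median of all genes to -0.43 and that of the members to -0.29, so the members lay 0.14 above all genes, against 0.17 before.

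**Figure D3:**
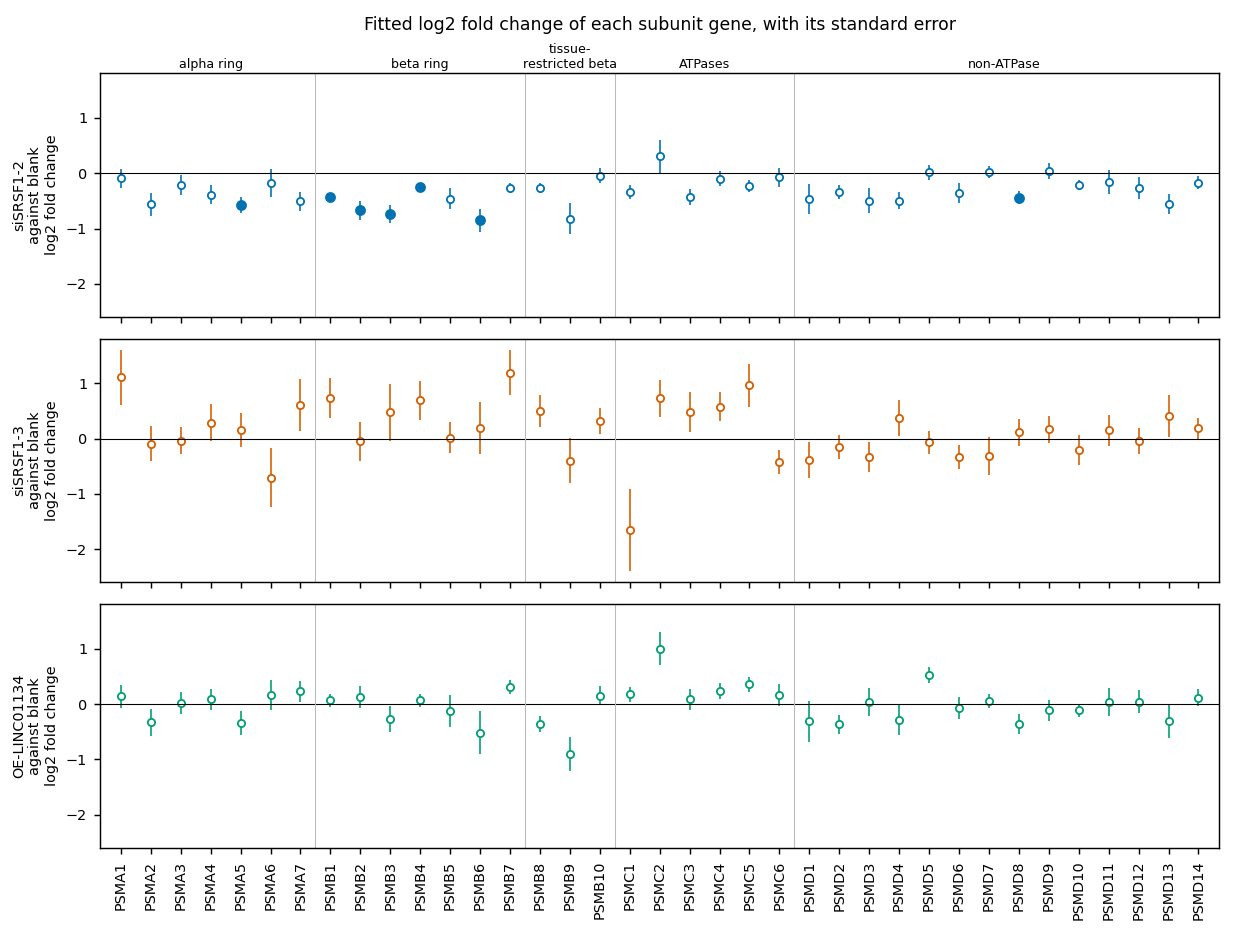
Fitted log2 fold change (vertical axis) of each of 37 subunit genes in 3 comparisons with the blank cells, with bars for the standard error; filled circles mark adjusted p under 0.05 in limma. The 7 filled circles all lie below 0 in the siSRSF1-2 panel, and the siSRSF1-3 panel runs from -1.65 (PSMC1) to 1.19 (PSMB7) with no filled circle.

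The siRNAs, which both target SRSF1, were then set directly against each other. No member passed the limma test (0 of 37, smallest adjusted p = 0.0804), where 0.0855% of all genes tested did, all of them past a 2-fold change (0.0855%). At an unadjusted p under 0.05, 17 members were higher with siSRSF1-3 than with siSRSF1-2 and 1 was lower, against 21.9% higher and 20.2% lower among all genes, and limma-voom called 0 of 37. In 21 members every siSRSF1-3 library lay above every siSRSF1-2 library and in 2 below, where 27% and 27.6% of all genes did so. The median log2 difference was 0.47 over the members and -0.02 over all genes, and it was 1.04 over the beta ring. Scaling to the same FPKM sum turned the members' median to -0.10 while that of all genes became -0.57, so the members stayed 0.47 above all genes, against 0.49 before.

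PSMB7 had the highest fitted difference, 1.46 ± 0.40 on the log2 scale (SE, limma adjusted p = 0.0804), with 93.1, 94.8 and 93.5 FPKM with siSRSF1-2. PSMD14, the subunit that cuts ubiquitin chains off the substrate, was at 24.3, 25.5 and 23.4 FPKM with siSRSF1-3 and at 18.8, 19.1 and 18.9 with siSRSF1-2, a difference of 0.36 ± 0.10 (SE, limma adjusted p = 0.0813). The fitted difference of PSMC6 was -0.35 ± 0.10 (SE, limma adjusted p = 0.0835). The siSRSF1-2 libraries were near-identical and the siSRSF1-3 libraries were not, and without siSRSF1-3 replicate 3 the limma test called 23 members higher and 1 lower, beside 61.2% of all genes. With the near-identical libraries averaged it called 0.

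With OE-LINC01134, the subunit genes as a group stayed at the level of all genes. Their median log2 fold change was 0.05, and so was that of all genes tested. No member passed the limma test (0 of 37, smallest adjusted p = 0.101), where 1.18% of all genes did and 0.85% did so past a 2-fold change. At an unadjusted p under 0.05 the limma fit gave 4 members higher and 2 lower, against 14% higher and 12.3% lower among all genes, and limma-voom called 0. The ranges did not overlap in 4 members that were higher (PSMB7, PSMC2, PSMC5 and PSMD5) and in none that were lower, where 16.8% and 13.8% of all genes did so.

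PSMD5, a chaperone of 19S base assembly, was at 13.4, 12.2 and 13.7 FPKM against 11.0, 8.19 and 8.20 in the blank libraries, a log2 difference of 0.53 ± 0.15 (SE, n = 3 and 3, limma adjusted p = 0.101). PSMC2 was at 78.0, 84.9 and 77.7 FPKM against 66.4, 31.2 and 30.6, a difference of 1.006 ± 0.30 (SE, limma adjusted p = 0.105). PSMB9 was at 1.37, 1.88 and 1.36 FPKM against 1.80, 3.69 and 3.74, a difference of -0.90 ± 0.31 (SE, limma adjusted p = 0.139). In PSMC2 and PSMB9 blank replicate 1 lay between the treated libraries and the other blank libraries, or within the treated range. PSMC2 and PSMD5 overlap genes on the opposite strand: DNAJC2 had 36.97% of the reads of PSMC2, and a pseudogene on the opposite strand of PSMD5 had 74.3% of the reads of PSMD5. Without blank replicate 1, limma called 6 members higher (PSMC2, PSMD5, PSMC5, PSMA7, PSMB7 and PSMC4) and PSMB9 lower, beside 13.9% of all genes, and without OE-LINC01134 replicate 2 it called PSMB8 alone, at -0.49.

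The active site subunits were then followed library by library, since they set what the core can cleave. PSMB5, the chymotrypsin-like subunit, was at 109.6, 68.8 and 69.3 FPKM in the blank libraries, at 57.8, 58.3 and 59.7 with siSRSF1-2, at 87.9, 97.5 and 63.7 with siSRSF1-3, and at 61.0, 108.9 and 61.3 with OE-LINC01134. It lay below the blank range in every siSRSF1-2 library, with a log2 difference of -0.46 ± 0.19 (SE, limma adjusted p = 0.12). PSMB6 was at 108, 75.5 and 31.6 FPKM with siSRSF1-3, which lay above, inside and below the blank range. With OE-LINC01134 it was at 30.9, 69.6 and 27.9 FPKM, where replicate 2 lay inside the blank range and replicates 1 and 3 below it. PSMB7 was at 136, 149.8 and 133 FPKM with OE-LINC01134, above the blank range in all 3 libraries (log2 difference 0.31 ± 0.12, SE, limma adjusted p = 0.178).

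The subunits that replace them in the immunoproteasome were less abundant. PSMB8, the counterpart of PSMB5, was at 14.9, 17.8 and 17.1 FPKM in the blank libraries, at 13.7, 14.3 and 13.4 with siSRSF1-2, at 33.3, 25.4 and 15.2 with siSRSF1-3, and at 11.9, 15.2 and 11.6 with OE-LINC01134. PSMB9, the counterpart of PSMB6, was at 1.55, 1.65 and 1.63 FPKM with siSRSF1-2 and at 2.27, 3.37 and 1.37 with siSRSF1-3, so that every siSRSF1-2 library lay below the blank range of 1.80 to 3.74 and the siSRSF1-3 libraries overlapped it. PSMB10, the counterpart of PSMB7, stayed between 2.06 and 3.78 FPKM in all 12 libraries, and its groups overlapped. None of PSMB8, PSMB9 and PSMB10 passed the limma test in any comparison with the blank cells; the lowest adjusted p was 0.0637, for PSMB8 with siSRSF1-2. PSMB8 and PSMB9 lie beside each other on chromosome 6 (32840717 to 32844703 and 32844136 to 32859585) and overlap on opposite strands, and PSMB8 had 752% of the reads of PSMB9, so the share of these reads that belongs to PSMB9 cannot be told apart without the strand.

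A ratio within a library does not depend on how libraries were scaled. PSMB8 was at 13.6%, 25.9% and 24.7% of PSMB5 in the blank libraries, at 22.5% to 24.4% with siSRSF1-2, at 37.9%, 26.04% and 23.9% with siSRSF1-3, and at 19.5%, 13.99% and 18.9% with OE-LINC01134. PSMB9 was at 2.29%, 8.12% and 7.63% of PSMB6 in the blank libraries and at 4.86% to 5.67% with siSRSF1-2. PSMB10 was at 1.89% to 2.73% of PSMB7 in the blank libraries and at 0.576%, 1.39% and 2.24% with siSRSF1-3. Blank replicate 1 and OE-LINC01134 replicate 2 were the lowest of their groups for PSMB8 and PSMB9 relative to their counterparts, and each treated group overlapped the blank libraries for both ratios.

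**Figure D4:**
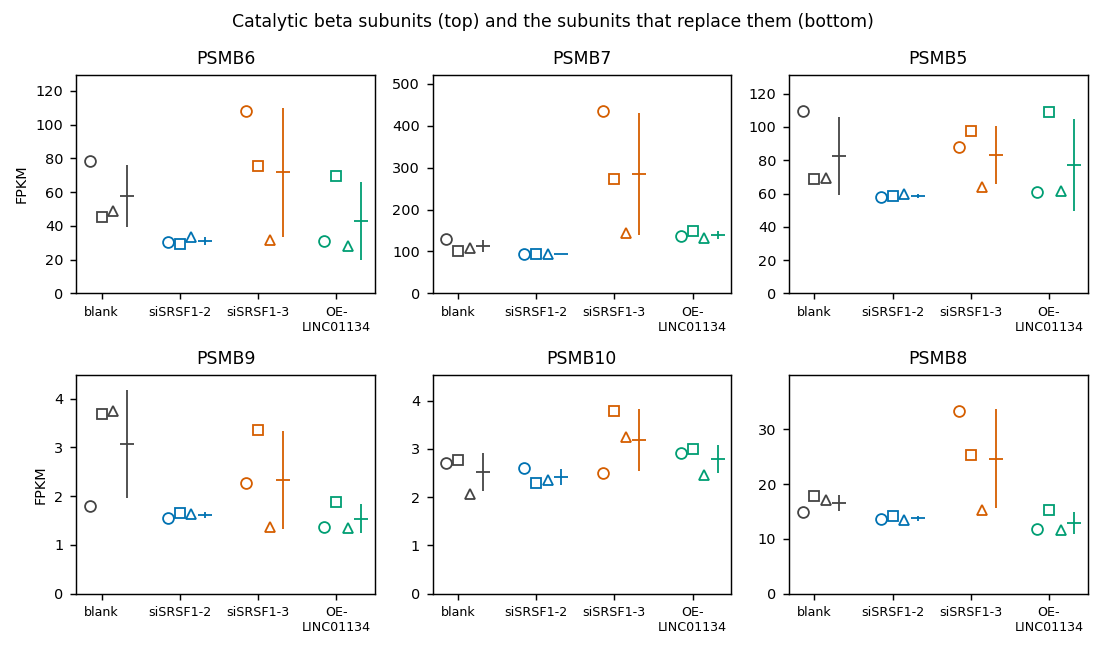
FPKM (vertical axes from 0) of the catalytic subunits PSMB6, PSMB7 and PSMB5 and, below each, of the subunit that replaces it (PSMB9, PSMB10, PSMB8); symbols are libraries (circle, square and triangle for replicates 1, 2 and 3) and the bar at the right of each group is the mean with its SD (n = 3). For PSMB7 all siSRSF1-3 libraries lie above and all siSRSF1-2 libraries below the blank range of 102 to 129.

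The remaining named subunits belong to the 19S cap. PSMD2 was at 118, 124 and 119 FPKM with siSRSF1-2, below the blank range, at 134, 143 and 133 with siSRSF1-3, and at 106, 142 and 108 with OE-LINC01134. PSMD4, a receptor for ubiquitin chains, was at 70.7, 49.4 and 49.8 FPKM in the blank libraries, at 41.9, 39.9 and 37.2 with siSRSF1-2, at 101, 80.6 and 46.3 with siSRSF1-3, and at 37.2, 68.6 and 37.7 with OE-LINC01134. PSMD14 was at 25.7, 18.8 and 20.3 FPKM in the blank libraries and at 22.5, 25.6 and 21.7 with OE-LINC01134. All of PSMD2 and PSMD4 in siSRSF1-2 lay under the blank range, but neither passed the limma test (adjusted p = 0.0922 and 0.0573), and PSMD14 overlapped the blank range in each group.

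Core and cap did not keep the same proportion in all groups. The mean log2 level of 14 constitutive 20S genes minus that of 17 genes of the 19S cap (3 assembly chaperones left out) was 0.00, 0.08 and 0.07 in the blank libraries. It was -0.13, -0.15 and -0.10 in siSRSF1-2, below every blank library, and -0.01, 0.01 and -0.04 in OE-LINC01134. In siSRSF1-3 it was 0.80, 0.33 and -0.06, so that replicates 1 and 2 lay above and replicate 3 below the blank libraries. As a share of all reads on genes, the members took 0.698%, 0.526% and 0.534% in the blank libraries, 0.466% to 0.474% with siSRSF1-2, 0.668%, 0.658% and 0.523% with siSRSF1-3, and 0.549%, 0.677% and 0.545% with OE-LINC01134. The siSRSF1-2 share was below every blank library, and the other groups overlapped the blank range.

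Gene length moved with these differences. The beta ring genes were short, with a median length of 1787 bases in the table, against 4318.5 for the alpha ring and 5075.5 for the non-ATPase genes. Across the 37 members, the log2 fold change in siSRSF1-3 and the log2 gene length had a Pearson correlation of -0.46 (Spearman -0.49), and across 12270 protein-coding genes, which share the same libraries and scaling, it was -0.31 (Spearman -0.33). The 11 members under 2500 bases had a median of 0.48 and the 13 of at least 5000 bases one of -0.09, beside 0.48 and -0.17 for protein-coding genes of these lengths. In siSRSF1-2 the correlation across members was 0.24 (Spearman 0.22). There the members lay below protein-coding genes in each class of length, at -0.43 against -0.17 under 2500 bases and at -0.34 against 0.09 from 5000 bases upwards. The part of gene length in the difference between core and cap was not tested.

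**Figure D5:**
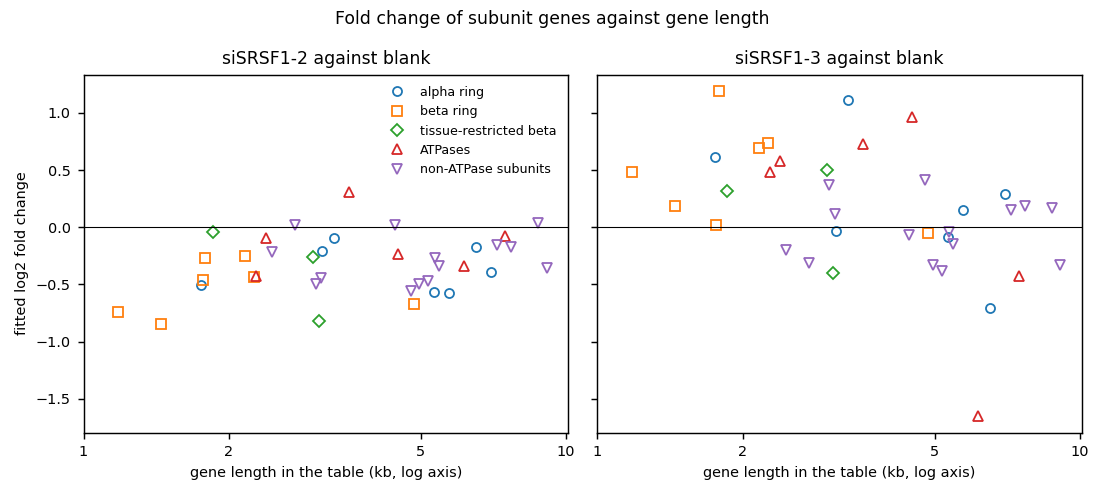
Fitted log2 fold change (vertical axis) against gene length in kilobases (log axis) for 37 subunit genes, by role, with siSRSF1-2 on the left and siSRSF1-3 on the right. In the right panel short beta ring genes lie up to 1.19 and the longer PSMC1 at -1.65, and in the left panel nearly all genes lie below 0 at every length.

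The genes that build, feed and regulate the proteasome were read from lists of 32 tested genes. With siSRSF1-2, POMP, the chaperone that helps close the 20S core, fell by 1.08 on the log2 scale (limma adjusted p = 0.00734), from 102, 65.1 and 72.5 FPKM to 36.8, 36.7 and 37.8. Of 5 assembly chaperones, POMP and PSMG1 fell and none rose. Of 4 other 26S subunits, UCHL5, a deubiquitinase of the cap, fell. Of 5 activators and inhibitors, PSME1 and PSME2, which form the cap induced with the immunoproteasome, fell and PSME4 rose, by 0.29, 0.27 and 0.26. Among the shuttle and segregase genes, RAD23B and UFD1 fell. In this comparison 26.8% of all genes tested were called, and with 1 library left out the called genes of these lists ranged from 3 to 25 of 32 (25 without blank replicate 1, 7 without blank replicate 3, 4 without siSRSF1-2 replicate 1, and 3 without replicate 2 or 3 of siSRSF1-2). With the near-identical libraries averaged limma called 0 of 32, with 2 at an unadjusted p under 0.05, so nothing is read from the counts about the lists.

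UBB and RPS27A are among the genes that encode ubiquitin itself. With siSRSF1-2, UBB and RPS27A fell by 0.55 and 0.46 on the log2 scale (limma adjusted p = 0.00509 and 0.00339), and the activating enzymes UBA1 and UBA6 did not pass the test. Of the 4 genes that control subunit transcription, NFE2L2 rose by 0.57 and NFE2L1, the factor that raises subunit genes when the proteasome is inhibited, was at 77.3 to 79.5 FPKM against 66.1 to 82.5 in the blank libraries. With siSRSF1-3 none of these 32 genes passed the limma test, and NFE2L1 was at 43.1, 46.1 and 67.6 FPKM. RPS27A was at 1529, 692 and 378 FPKM and UBB at 17.0, 61.8 and 60.0 with siSRSF1-3, against 369 to 398 and 90.1 to 104.5 in the blank libraries, so RPS27A and UBB lay on opposite sides of the blank range in replicates 1 and 2. With OE-LINC01134 none of the 32 genes passed the test either.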

How the data were processed

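Labels call the organism mouse and name GRCm38 and mm10, but the table lists human identifiers and U2OS is human, so the libraries were treated as human and coordinates carry no build. The authors deposited FPKM per gene and library, with gene length and coordinates. Its columns were matched to groups by name, reading ASF as an older name of SRSF1 and LINC as OE-LINC01134. The aligner and counter are not given in the sources used here. Labels and supplementary methods name different library kits, and the paper's methods describe transient transfection in another osteosarcoma line. FPKM times gene length gave whole reads in every library (100% of values within 0.001 of a read), and the implied library sizes showed a median-of-ratios scaling before deposit. The unit being FPKM, limma 3.58.1 (R 4.3.3) was fitted to log2(FPKM + 0.1), with a mean-variance trend, per comparison, over the 17538 genes whose mean reached 0.5 FPKM; the fold changes are on that scale and understate those of low genes. The step was tested on simulated data. Alternatives changed pseudocount, filter, scaling, model and libraries, and limma-voom used the recovered reads. Replicate numbers did not pair the samples. Genes given library by library were PSMB5 to PSMB10, PSMD2, PSMD4 and PSMD14, plus, per comparison, the 3 called members with the largest change in each direction or, with none called, the 3 of lowest adjusted p; PSMA7, PSMC1 and others named by a count were chosen after their values were seen. Values of some listed genes are not reported here. Members and lists were chosen with earlier results of these data known.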

Additional observations from a re-analysis of the deposited data

Results flagged for a closer look

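For PSMB7, every siSRSF1-3 library lay above the blank range and every siSRSF1-2 library below it, with log2 fold changes of 1.19 and -0.27 and a difference of 1.46 that did not pass the test (limma adjusted p = 0.0804 in the direct comparison). The libraries of siSRSF1-2 and OE-LINC01134 also lay on opposite sides of the blank range for PSMB7, at -0.27 and 0.31, a difference of -0.57 that was not tested. PSMC5 did so too, with all siSRSF1-2 libraries below and all OE-LINC01134 libraries above the blank range, at -0.23 and 0.36, a difference of -0.59 that was not tested. FTSJ3, which overlaps PSMC5 on the opposite strand, had 28.6% of the reads of PSMC5, and a PSMC5 pseudogene had a mean of 1.06 FPKM. Their part in the values of PSMC5 was not tested. Groups of 3 libraries were not screened for single outlying values.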

How the results depend on the processing

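For siSRSF1-2 against blank, the count of 7 members became 1 with no filter on low values, 4 without a variance trend, 0 in one fit over all 4 groups, 0 with near-identical libraries averaged (chosen after seeing the data, because no pair met the planned condition of differing by no more than sampling noise) and 2 with the replicate block, and ranged from 0 to 24 when 1 library was left out. All 7 kept their direction in each of 18 alternatives and were called in 8 to 13. The median of -0.34 moved to -0.28 with pseudocount 1, -0.20 with the same FPKM sum, -0.29 with each library's own read total and -0.39 with averaging, and ranged from -0.41 to -0.20 when 1 library was left out. For siSRSF1-3 against blank, one fit gave 3 members, leaving out a library 0 to 8, and the same FPKM sum a median of -0.29. For OE-LINC01134, one fit gave 1 and leaving out a library 0 to 7. For siSRSF1-3 against siSRSF1-2, one fit gave 10, leaving out a library 0 to 24, and the median moved to -0.10 with the same sum and 0.18 with own totals. Except for siSRSF1-2 against blank, the share of all genes beside the highest count with a library left out is given above. For the other counts under changed settings it is not given here, so nothing is read from them about the members.

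Uncalled genes changed sign. With the same FPKM sum, siSRSF1-3 against blank became -0.42 for PSMB5, -0.26 for PSMB6, -0.11 for PSMB10, -0.26 for PSMD14 and -0.074 for PSMD4, and with own totals -0.24, -0.074 and -0.071 for PSMB5, PSMB6 and PSMD14. PSMB5 there was -0.090 with averaging and ranged from -0.11 to 0.24, and PSMB6 from -0.20 to 0.69, when a library was left out. In siSRSF1-2, PSMB10 became 0.086 with the same sum, 0.0021 with own totals and -0.17 to 0.032 when a library was left out, and PSMB5 in OE-LINC01134 ranged from -0.40 to 0.10. Between the siRNAs the same sum gave -0.10 for PSMB5, -0.13 for PSMB9, -0.19 for PSMB10, -0.21 for PSMD14 and -0.39 for PSMD2, which was -0.12 with own totals. The same sum moved the median of all genes to -0.43 for siSRSF1-3 against blank and -0.57 between the siRNAs, and own totals to -0.26 and -0.31.

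The replicate numbers did not pair the samples (same-number correlations with the blank libraries of -0.08 to 0.04), and the replicate block changed no other count. PSMB11 and PSMA8 were too low to test. Without counts of separate molecules, the reads limit counting error only.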

Other observations

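Genes that load peptides onto MHC class I were read beside the immunoproteasome. With siSRSF1-3, TAP1, a peptide transporter that also overlaps PSMB9 on the opposite strand, was at 1.03, 4.77 and 6.75 FPKM against 7.72, 13.1 and 13.0 in the blank libraries. None of the 10 genes of this list passed the limma test there (smallest adjusted p = 0.107). With siSRSF1-2, NLRC5, which drives class I transcription, and TAPBP rose by 0.75 and 0.52 on the log2 scale, and IRF1 fell by 0.69, with limma adjusted p between 0.00259 and 0.0329. These are 3 of 10 listed genes, beside 26.8% of all genes tested. With 1 library left out the count ranged from 1 (without replicate 2 or 3 of siSRSF1-2) to 7 (without blank replicate 1), and was otherwise 2, and with the near-identical libraries averaged limma called 0, also at an unadjusted p under 0.05. With OE-LINC01134 none passed the test.

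The table also holds 57 pseudogenes of proteasome subunits. Of these, 5 reached a mean of 0.5 FPKM, and all together took 0.0777% to 0.27% of the members' reads.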
